A study of Mus musculus with 20 samples.

Results

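The mitochondrial genome of the mouse is a small circle that holds 37 genes, and each of them was a row of both expression tables of this series. They were taken by symbol, as every row whose name starts with mt-, out of 53722 genes in the oocyte table and 55291 in the spermatogonia table. Of the 37 genes, 13 encode proteins of the respiratory chain and the ATP synthase, 2 encode the rRNAs of the mitochondrial ribosome (mt-Rnr1, small subunit, and mt-Rnr2, large subunit) and 22 encode tRNAs. The protein mt-Nd6 and 8 tRNAs lie on the minus strand, and the rest lie on the plus strand.

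Both strands of the circle are transcribed into long precursors, which are cut mostly at the tRNAs that stand between the other genes. The freed messengers and rRNAs then receive or keep short A tails, so genes of 1 precursor can still end at very different levels. All other factors of this process, among them the polymerase POLRMT, the packaging factor TFAM and the enzymes that trim RNA ends, are made from nuclear genes. Oocytes pass the mitochondrial genome to the next generation and gather many copies of it as they grow.

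The 20 RNA libraries came from germ cells of mice with targeted alleles of Chd4, which encodes the ATPase of a chromatin remodelling complex, and formed 10 groups of 2. At postnatal day 1 and day 5 (P1, P5), non-growing oocytes (NGO) came from DcKO mice (Chd4 f/-; Ddx4-Cre Tg/+) and from Dctrl mice (Chd4 f/+; Ddx4-Cre Tg/+), so these controls were heterozygous and carried Cre. The same genotypes gave undifferentiated spermatogonia at P3. At P10, non-growing and growing oocytes (GO) came from GcKO mice (Chd4 f/f; Gdf9-iCre Tg/+) and from Gctrl mice (Chd4 f/f), whose labels list no Cre. Ddx4-Cre acts in germ cells of both sexes and Gdf9-iCre in oocytes. All mice were of a cross of FVB/NJ, 129S1/Sv and C57BL/6. No sort or gate is given, and nothing says that the 2 replicates came from separate animals, so each p-value rests on a spread between libraries that may be technical.

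The libraries held 15.4 to 30.2 M counted reads, a depth recovered from the steps between low values. Chd4 stood at 24.7 and 31.2 TPM (the length-scaled share of a transcript in its library) in P1 Dctrl and at 4.32 and 1.9 in P1 DcKO (-2.87 on the log2 scale, limma adjusted p = 0.0136). At P5 it stood at 14.5 and 17.9 against 8.28 and 4.94, and in spermatogonia at 249 and 286 against 40.2 and 51.7, neither past the test. At P10 all 8 libraries were under 3 TPM, from 0.247 to 2.96, with both knockout libraries below both controls in NGO and in GO. There 17% and 18% of all genes tested lay below in the same way. Neither change passed the test, at -0.68 ± 0.50 (SE, limma adjusted p = 0.615) in NGO and -0.65 ± 0.50 (limma adjusted p = 0.488) in GO. All 9 oocyte markers were above 1 TPM in every oocyte library. Summed over each list, markers of supporting, stromal, endothelial and blood cells reached at most 65.9, 17.6, 102 and 20.1 TPM there, against at least 43903 TPM for the oocyte markers. The oocyte sum was 50871 and 52251 TPM in P10 GO Gctrl against 103328 and 113662 in P10 GO GcKO. The endothelial maximum was replicate 1 of P10 GO GcKO, and the next GO library had 6.64. The supporting cell sum was 12.8 and 4.47 in P5 Dctrl against 25.7 and 65.9 in P5 DcKO, with 1 to 6 of its 10 genes above 1 TPM, and 2.28 and 0.501 in P10 GO Gctrl against 10.3 and 10.7 in GcKO, with 0 to 2. The endothelial sum was 8.65 and 10.7 against 25.7 and 15.7 at P1, with 1 to 4 of 5 genes. Their part in the mitochondrial values was not tested. Of the 9 markers of undifferentiated spermatogonia, 8 or 9 were above 1 TPM in each spermatogonia library. Their sums were 3559 and 3517 TPM in Dctrl and 3244 and 2680 in DcKO.

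Several sequences set how the values can be read. The 3 tRNA genes below are those whose levels recur in the results, with the anticodon in capitals, taken from the GENCODE M21 transcripts of GRCm38. The first is the minus strand gene at chrM:15356-15422, the second the minus strand gene at chrM:14071-14139, which begins at the base after mt-Nd6 (chrM:13552-14070), and the third the plus strand gene at chrM:2676-2750, between mt-Rnr2 and mt-Nd1.
mt-Tp: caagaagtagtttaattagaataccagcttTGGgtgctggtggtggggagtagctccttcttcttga
mt-Te: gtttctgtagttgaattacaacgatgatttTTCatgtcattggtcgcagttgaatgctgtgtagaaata
mt-Tl1: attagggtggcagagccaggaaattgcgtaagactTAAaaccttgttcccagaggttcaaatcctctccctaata

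Neighbouring genes share bases. The last 43 bases of mt-Atp8 are the first 43 of mt-Atp6, at chrM:7927-7969 on the plus strand, and are shown with the first codon of mt-Atp6 in capitals because a read from this stretch belongs to both genes. The genes mt-Nd4l and mt-Nd4 share 7 bases. The 14 bases shared by mt-Nd5 and mt-Nd6 lie on opposite strands. The strand setting of the counting is not given in the sources used here, so reads from mt-Nd6 and from RNA of the opposite strand across it cannot be told apart.
mt-Atp8 and mt-Atp6: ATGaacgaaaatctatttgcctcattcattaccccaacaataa

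A run of 7 annotated pseudogenes on chromosome 1 (GRCm38 chr1:24611535-24616197, minus strand) matches genes from mt-Co1 to mt-Nd4 almost letter for letter. Alignment of the transcripts found copies of at least 99% identity for 8 of the 13 protein genes. In 5 of them the copy spans nearly the whole gene: mt-Co2 with Gm28661 (681 of 684 bases), mt-Atp6 with Gm10925 (678 of 681), mt-Co3 with Gm28437 (783 of 784), mt-Nd3 with Gm28438 (345 of 348) and mt-Nd4l with Gm10222 (294 of 297). Annotated copies span 876 of 1378 bases of mt-Nd4, 483 of 1545 bases of mt-Co1 and 43 of 204 bases of mt-Atp8. Only annotated transcripts were searched, so bases between the pseudogenes, where more of these genes may be copied, were not compared and each length is a minimum. No copy of this identity was found among the transcripts for mt-Nd1, mt-Nd2, mt-Nd5, mt-Nd6, mt-Cytb or either rRNA gene. Less similar matches were found for several genes. Among them were Gm11410 for mt-Cytb (1142 bases at 92.9%), Gm11408 for mt-Nd6 (519 at 93.6%), Gm11407 for mt-Nd5 (1055 at 92.4%) and Gm13340 for mt-Co1 (1545 at 97.6%). Within the aligned stretches a single base differed in mt-Co1 (A1066T) and a single base in mt-Nd3 (T3C), with positions counted from 1 at the first base of the gene. Both are shown with the differing base in capitals, the mitochondrial gene (chrM:6390-6422 and chrM:9459-9490, plus strand) above its copy.
mt-Co1: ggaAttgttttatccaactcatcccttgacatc
Gm29216: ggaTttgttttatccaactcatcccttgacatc
mt-Nd3: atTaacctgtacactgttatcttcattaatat
Gm28438: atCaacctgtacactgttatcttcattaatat

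A read that fits 2 places equally well can be dropped, split or given to either, and which was done is not given in the sources used here. Over the 16 oocyte libraries the means of the 5 genes with a nearly complete copy ran from 4.38 TPM (mt-Nd4l) to 197 (mt-Atp6). The 3 partly covered genes ran from 42.4 (mt-Atp8) to 2654 (mt-Co1), and the 5 genes without a copy from 1011 (mt-Nd5) to 12742 (mt-Cytb). In spermatogonia the sets ran from 3.95 to 177, from 34.7 to 4327 and from 605 to 21235. The copies themselves were listed with reads. Gm10925 had 240 and 498 TPM in P1 Dctrl and 501 and 1352 in P1 DcKO, and 87.8 to 287 TPM at P5 and P10. Levels and changes of the 5 covered genes are therefore uncertain. They made up 0.623% to 2.5% of the TPM of the 13 protein genes, a share that would be too low if their shared reads were dropped. Sums, shares and ratios over the 13 genes below rest on this total.

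**Figure D1:**
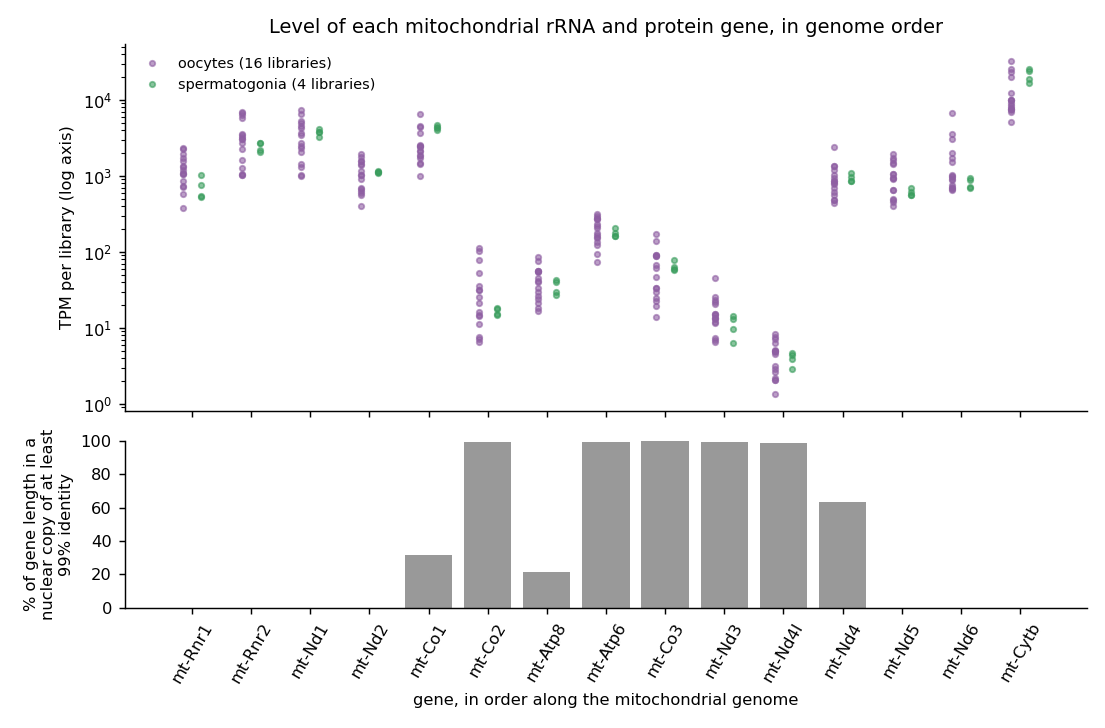
Upper plot: TPM (log axis) of the 2 rRNA and 13 protein genes in order along the circle, 1 point per library. Lower plot: percent of each gene's length inside a nuclear copy of at least 99% identity; the 5 genes near 100% are mt-Co2, mt-Atp6, mt-Co3, mt-Nd3 and mt-Nd4l, whose oocyte means lie between 4.38 and 197 TPM.

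Levels of single genes spanned more than the groups did. The top gene was mt-Cytb, the mitochondrial subunit of complex III, at 5175 to 32788 TPM in oocytes, where it was among the 10 highest of all genes in every library. In the 4 spermatogonia libraries it was the highest gene of all, at 16644 to 25335 TPM. In oocytes it was followed by mt-Nd1 (mean 3402 TPM), mt-Co1 (2654), mt-Nd6 (1674), mt-Nd2 (1084), mt-Nd5 (1011) and mt-Nd4 (926). The mt-Nd genes encode complex I subunits, and mt-Co1 encodes the catalytic subunit of complex IV. Within each oocyte library mt-Cytb was the highest protein gene, at 1.36 to 9.64 times mt-Nd1. The order of the others by mean was not that of every library. In P10 NGO Gctrl mt-Co1 had 4362 and 3670 TPM, above mt-Nd1 at 2728 and 2088. In spermatogonia mt-Co1 (4327) stood above mt-Nd1 (3736), and did so within every library. Of the rRNAs, mt-Rnr2 averaged 3315 TPM in oocytes and 2401 in spermatogonia, and mt-Rnr1 averaged 1261 and 715. The library kit, as sold, starts cDNA from A tails, so these values are not levels of total RNA.

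Among the tRNA genes mt-Tp, for proline, stood far above the rest, with a mean of 647 TPM in oocytes (277 to 1156) and 1929 in spermatogonia (1683 to 2127). The next in oocytes was mt-Te, for glutamate, at a mean of 58.7, and in spermatogonia mt-Tl1, for a leucine codon group, at 43.3. Expression above 1 TPM in at least 2 libraries was the condition for testing. It was met by all 13 protein genes, both rRNA genes and 17 of 22 tRNA genes in oocytes, 32 of 37 in all, and by 26 of 37, with 11 tRNA genes, in spermatogonia. The genes mt-Td, mt-Tk and mt-Th were listed at 0 in all 20 libraries. With tRNA genes of 59 to 75 bases, most other tRNA values rested on a few reads.

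The share of all TPM that fell on the 13 protein genes was higher in both knockout libraries than in both controls in each of the 5 knockout comparisons. At P1 the share was 1.85% and 2.06% in Dctrl and 2.52% and 2.69% in DcKO, a ratio of means of 1.33. At P5 it was 1.16% and 1.45% against 1.66% and 1.79%, a ratio of 1.32. P10 NGO had 3.73% and 3.11% in Gctrl and 4.22% and 5.70% in GcKO, a ratio of 1.45. P10 GO had 1.33% and 1.42% against 1.87% and 1.62%, a ratio of 1.27, and P3 spermatogonia had 3.05% and 2.79% against 3.75% and 3.65%, also 1.27. With 2 libraries against 2, the smallest p of a two-sided exact permutation test is 0.333, so these shares carry no test of their own.

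A share of TPM also moves with all other RNA in the cell, and more mitochondrial RNA cannot be told apart from less of everything else, nor fewer cells from less RNA per cell. After scaling each library by the median of gene ratios in place of its total, the knockout libraries stayed above the controls in 4 of the 5 comparisons. In P10 NGO, 1 of these 4, the margin was narrow for GcKO replicate 1. The values there were 3.67% and 3.28% in Gctrl and 3.84% and 7.45% in GcKO. In P10 GO the groups then overlapped, at 1.92% and 2.12% in Gctrl and 2.02% and 2.15% in GcKO. That scaling moved log2 changes in a comparison by 0.50 for P10 against P5 controls, by 0.53 for GO against NGO in Gctrl and by 0.13 in GcKO. For the knockout it moved them by 0.05 at P1, 0.08 at P5, 0.10 in P10 NGO, -0.30 in P10 GO and -0.09 in spermatogonia.

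The rRNA genes did not share this direction. The TPM of both rRNA genes divided by that of the 13 protein genes was 0.499 and 0.440 in P1 Dctrl and 0.298 and 0.308 in P1 DcKO. At P5 it was 0.422 and 0.302 against 0.265 and 0.229, in P10 GO 0.133 and 0.150 against 0.0876 and 0.0868, and in spermatogonia 0.113 and 0.133 against 0.0689 and 0.0752. Both knockout libraries lay below both controls in these 4 comparisons. In P10 NGO the groups overlapped, at 0.135 and 0.0753 in Gctrl against 0.0778 and 0.0665 in GcKO. This ratio lies within a library and does not depend on the scaling. It shows unequal levels of the 2 kinds of RNA and not which of them differed.

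**Figure D2:**
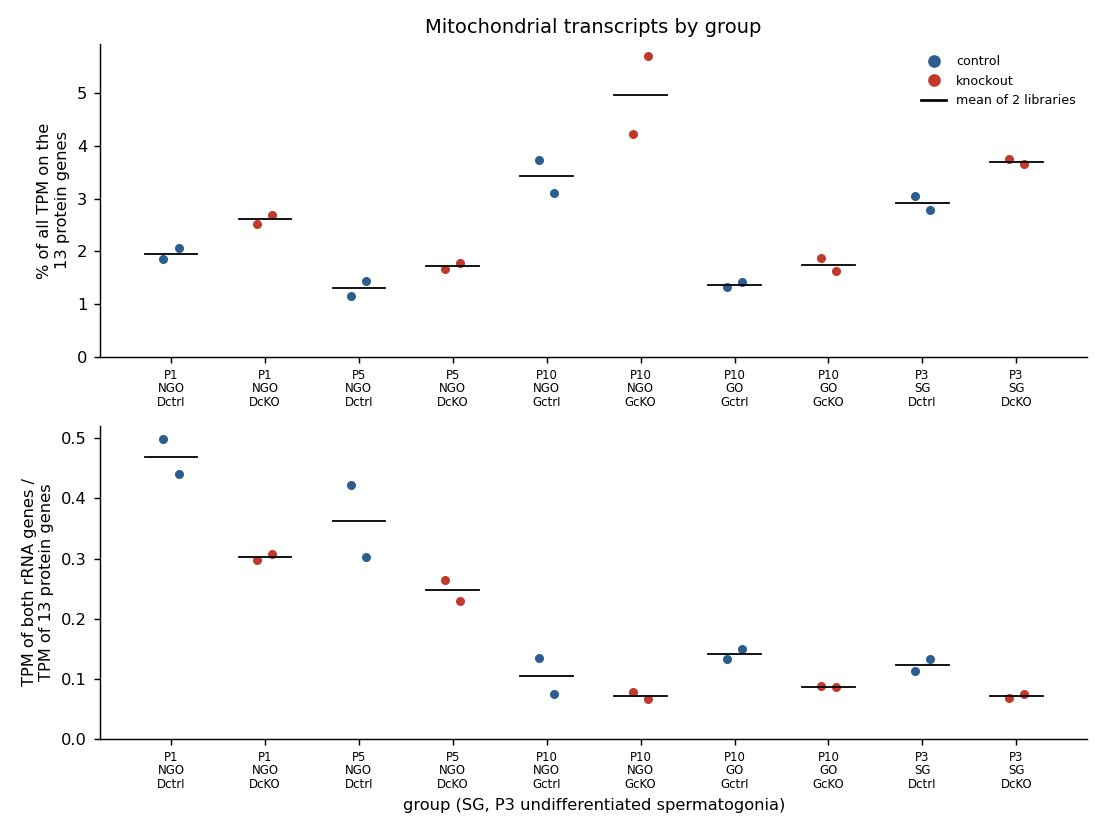
Upper plot: percent of all TPM on the 13 mitochondrial protein genes. Lower plot: TPM of both rRNA genes divided by that of the protein genes. Each point is a library and each line the mean of 2. Knockout points lie above the controls in the upper plot in all 5 pairs of groups and below them in the lower plot in 4 of 5, with overlap in P10 NGO.

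In P1 oocytes no mitochondrial gene passed the test between DcKO and Dctrl (0 of 32 by limma, where 1.7% of all 20470 genes tested passed). Of the 32, 5 had an unadjusted p under 0.05, as did 10.2% of all genes. They were the protein genes mt-Nd1, mt-Nd5, mt-Nd6, mt-Cytb and the covered mt-Co2, all above their controls. The complex I gene mt-Nd5 had 932 and 1043 TPM in Dctrl and 1452 and 1720 in DcKO, a log2 change of 0.68 ± 0.16 (SE, n = 2 per group, limma adjusted p = 0.0572). The values of mt-Nd6 were 908 and 992 against 1504 and 1727 (0.76 ± 0.25, limma adjusted p = 0.218). Those of mt-Cytb were 6816 and 7967 against 9991 and 10011 (0.44 ± 0.16, limma adjusted p = 0.316). In 10 of the 13 protein genes both DcKO libraries were above both controls, against 18.4% of all genes tested. The 13 share precursors and libraries, so this count and those like it below are not of independent genes. The median change over the 13 was 0.41, with a median of 0 over all genes. In both rRNA genes the DcKO libraries were below the controls, where 22.5% of all genes were, with 2285 and 2328 against 1740 and 1939 TPM for mt-Rnr1 (-0.33 ± 0.28, limma adjusted p = 0.874) and 6942 and 6749 against 5754 and 6342 for mt-Rnr2 (-0.18 ± 0.25). The latter overlapped after median scaling. The tRNA mt-Tp had 1085 and 1058 against 1104 and 1156 TPM (0.08 ± 0.39).

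In P5 oocytes mt-Nd1 was the single gene of the 32 past the test (1.36% of all genes tested passed). It had 2507 and 2304 TPM in Dctrl and 3666 and 4267 in DcKO, a log2 change of 0.72 ± 0.14 (limma adjusted p = 0.0309). The call was lost without any 1 of the 4 libraries, with adjusted p of 0.0568 without Dctrl replicate 1, 0.271 without Dctrl replicate 2, 0.0719 without DcKO replicate 1 and 0.243 without DcKO replicate 2. Its neighbour mt-Nd2 had 672 and 694 TPM against 1038 and 1038 (0.60 ± 0.16, limma adjusted p = 0.101), and mt-Nd5 had 647 and 656 against 896 and 944 (0.50 ± 0.16, limma adjusted p = 0.183). For mt-Cytb the groups overlapped, at 5175 and 7692 against 7471 and 7424. Both DcKO libraries were above both controls in 7 of 13 protein genes, against 23.9% of all genes. The rRNA gene mt-Rnr1 lay below in both (1362 and 1324 against 1183 and 1048 TPM), as 23.4% of all genes did, at -0.27 ± 0.28 (limma adjusted p = 0.826), while mt-Rnr2 overlapped. The tRNA mt-Tp had 279 and 310 TPM against 425 and 727 (0.92 ± 0.39, limma adjusted p = 0.373). The change at P5 minus that at P1 passed for 0 of 32 genes by limma, with 0 at an unadjusted p under 0.05 (0.313% of all genes passed, and 7.35% had such a p). For mt-Nd1 that difference was 0.29 ± 0.20.

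In P10 NGO, where 1.92% of all genes passed, mt-Nd1 was again past the test, with 2728 and 2088 TPM in Gctrl and 3428 and 4480 in GcKO (0.72 ± 0.14, limma adjusted p = 0.0261). Without Gctrl replicate 2 its adjusted p was 0.129 and without GcKO replicate 2 it was 0.109. The other call was the tRNA gene mt-Tl2, lower in GcKO, on at most 3 reads. It entered the test only through both P10 NGO Gctrl libraries and was at 0 in the other 14 oocyte libraries, so its calls here and in other comparisons follow from the filter and show nothing about the gene. After median scaling the calls were 0 higher and 1 lower. GcKO replicate 2 had the highest level of mt-Cytb, mt-Nd6 and mt-Te of all 16 oocyte libraries. The values of mt-Nd2 were 1152 and 919 TPM against 1572 and 1746 (0.69 ± 0.16, limma adjusted p = 0.0515), and those of mt-Nd6 were 3025 and 1983 against 3543 and 6761 (1.00 ± 0.25, limma adjusted p = 0.0683). All 13 protein genes had a positive change, with 9 of 13 not overlapping, against 17.4% of all genes. With median scaling mt-Co1 and mt-Atp6 overlapped as well. The number of mitochondrial genes called, 2 here, was 8 without GcKO replicate 1, 4 without Gctrl replicate 1, 1 without GcKO replicate 2 and 0 without Gctrl replicate 2. Both rRNA genes overlapped, with changes of 0.00 ± 0.28 and 0.06 ± 0.25, and 17% of all genes lay below the controls in both libraries. The tRNA mt-Te had 92.0 and 53.9 TPM in Gctrl and 209 and 415 in GcKO (2.05 ± 0.51, limma adjusted p = 0.0683), on 26 to 230 reads. It is the gene next to mt-Nd6 on the same strand, and both were highest in the same library.

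In P10 GO many more genes of the whole table passed (13.8%, with 9.12% higher and 4.69% lower), and 3 of 32 mitochondrial genes did, 2 higher and 1 lower. The ATP synthase gene mt-Atp6 was higher, with 73.4 and 94.4 TPM in Gctrl and 124 and 133 in GcKO (0.62 ± 0.19, limma adjusted p = 0.0486). It is 1 of the 5 genes with a nearly complete nuclear copy, and its adjusted p was 0.477 after median scaling, 0.294 without Gctrl replicate 1, 0.0934 without GcKO replicate 1 and 0.152 without GcKO replicate 2. The tRNA genes mt-Tg (higher) and mt-Tw (lower) rested on at most 4 reads, and each lost its call without at least 3 of the 4 libraries in turn (limma adjusted p of 0.0606 to 0.154). Among genes without a copy, mt-Nd1 had 1021 and 987 TPM against 1294 and 1423 (0.43 ± 0.14, limma adjusted p = 0.0638) and mt-Cytb had 8462 and 8963 against 12170 and 10041 (0.34 ± 0.16, limma adjusted p = 0.216). Both GcKO libraries were above both controls in 9 of 13 protein genes, against 30.3% of all genes. With median scaling only mt-Co1 stayed above, mt-Nd4 and mt-Atp8 lay below, and the other protein genes overlapped. After median scaling the changes of mt-Nd4, mt-Nd5, mt-Nd6 and mt-Atp8 were negative, the median of the 13 went from 0.34 to 0.06, and the calls were 1 higher and 3 lower in place of 2 higher and 1 lower. The largest change of the 15 protein and rRNA genes was that of mt-Rnr1, with 731 and 850 TPM in Gctrl and 584 and 374 in GcKO (-0.75 ± 0.28, limma adjusted p = 0.111), where 18% of all genes lay below. For mt-Rnr2 the groups overlapped, at 1039 and 1274 TPM against 1051 and 1032 (-0.14 ± 0.25, limma adjusted p = 0.877). After median scaling its GcKO libraries lay below the controls. The tRNA mt-Tl1, between the large rRNA and mt-Nd1, had 38.6 and 21.4 TPM against 8.88 and 16.4 (-1.18 ± 0.41, limma adjusted p = 0.0812). The change in GO minus that in NGO passed for mt-Tl2 only (7.46% of all genes passed), again through the filter, and for mt-Nd6 it was -0.77 ± 0.35 (limma adjusted p = 0.236).

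In P3 spermatogonia 0 of 26 mitochondrial genes passed by limma, as did 0% of the 18671 genes tested, and 5 of the 26 had an unadjusted p under 0.05, as did 16.1% of all genes. Among them mt-Cytb had 19046 and 16644 TPM in Dctrl and 25335 and 23914 in DcKO (0.47 ± 0.12, limma adjusted p = 0.185), and mt-Nd6 had 689 and 708 against 928 and 874 (0.37 ± 0.11, limma adjusted p = 0.231). Both rRNA genes lay below the controls in both DcKO libraries, against 18% of all genes: mt-Rnr1 had 759 and 1023 TPM against 531 and 546 (-0.71 ± 0.17, limma adjusted p = 0.169), and mt-Rnr2 had 2683 and 2677 against 2051 and 2195 (-0.34 ± 0.11, limma adjusted p = 0.238). Both DcKO libraries were above both controls in 9 of 13 protein genes, against 27.9% of all genes. With median scaling only mt-Nd4, mt-Nd5, mt-Nd6, mt-Cytb and mt-Atp8 stayed above. For mt-Co1 the groups overlapped, at 4639 and 4018 against 4237 and 4416. After median scaling mt-Nd2, mt-Nd3, mt-Nd4l, mt-Co1 and mt-Co2 had negative changes.

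Markers of other cell types moved with the knockout in spermatogonia, where the sum of the spermatogonia markers was lower in both DcKO libraries. Summed TPM of the supporting cell list was 438 and 454 in Dctrl and 598 and 530 in DcKO. Most of it was Dmrt1 (318 to 488), which germ cells also express. The rest of the list is not given gene by gene. Of its 10 genes, 6 to 9 were above 1 TPM in a library. The stromal list had 13.5 and 13.4 against 45.7 and 47.5, with 4 or 5 of 10 genes above 1 TPM in Dctrl and 7 and 5 in DcKO. The endothelial list had 26.1 and 22.8 against 43.9 and 50.0, with 4 or 5 of 5 genes above 1 TPM, and the blood list had 28.5 and 40.5 against 74.6 and 102, with 2 to 4 of 7. Their part in the mitochondrial values was not tested.

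**Figure D3:**
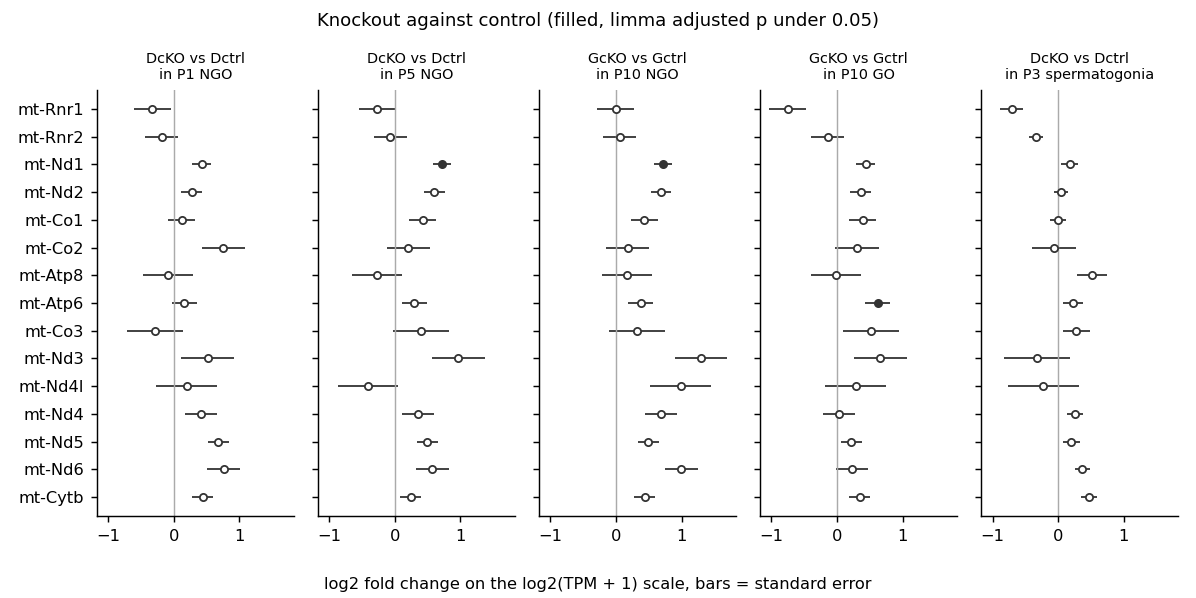
Log2 change (knockout against control, log2(TPM + 1) scale) of the 2 rRNA and 13 protein genes in the 5 comparisons, with standard errors. Filled points passed limma's test: mt-Nd1 in P5 NGO and P10 NGO, and mt-Atp6 in P10 GO. Most protein genes lie to the right of 0, and mt-Rnr1 lies to the left in P10 GO (-0.75) and in spermatogonia (-0.71).

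Counting over the 5 comparisons, 5 protein genes had both knockout libraries above both controls every time: mt-Nd1, mt-Nd2, mt-Nd5, mt-Nd6 and mt-Atp6. Of the 15236 genes tested in both tables, 1.04% did so. After median scaling none of these did so in all 5, where 0.906% of all genes did. The count was then 4 of 5 for mt-Nd5 and mt-Nd6, 3 of 5 for mt-Nd1 and mt-Nd2 and 2 of 5 for mt-Atp6. No share of all genes was taken at these lower counts. On either scale mt-Rnr1 was below the controls in 4 of 5, as 2.19% of all genes were in 4 or more (2.3% after median scaling). The other rRNA gene, mt-Rnr2, was below in 2 of 5 and overlapped in 3 on either scale, with no share of all genes taken at that count. The ratio of mt-Nd6 to mt-Nd5, neighbours on opposite strands, was higher in both knockout libraries in 4 of 5, with no share taken over other gene pairs. It was 0.974 and 0.951 against 1.04 and 1.00 at P1, 0.999 and 1.03 against 1.06 and 1.08 at P5, and 2.04 and 1.89 against 2.19 and 3.54 in P10 NGO. Spermatogonia had 1.23 and 1.26 against 1.36 and 1.43, and P10 GO overlapped, at 1.78 and 1.55 against 1.54 and 1.81. As no strand setting is given, reads counted to mt-Nd6 may include those of the other strand.

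From P1 to P5 in Dctrl, 8 of 32 mitochondrial genes fell and 0 rose, where 4.7% of all genes tested passed, 1.98% lower and 2.72% higher. The age comparison uses the same Dctrl libraries as the knockout comparisons. Of the protein genes mt-Nd1 went from 5029 and 5307 to 2507 and 2304 TPM (-1.10 ± 0.14, limma adjusted p = 0.001). The gene mt-Nd2 went from 1406 and 1445 to 672 and 694 (-1.06 ± 0.16, limma adjusted p = 0.0028). Both were called under all 11 alternatives. The others were mt-Co1 (-0.89), mt-Atp6 (-0.83), the rRNA gene mt-Rnr2 (6942 and 6749 to 3534 and 3052 TPM, -1.06 ± 0.25, limma adjusted p = 0.0338) and the tRNA genes mt-Tp, mt-Tl1 and mt-Tw. The tRNA mt-Tp went from 1085 and 1058 TPM to 279 and 310 (-1.86 ± 0.39, limma adjusted p = 0.0189), while mt-Tl1 rested on 11 to 38 reads and mt-Tw on at most 7. The level of mt-Cytb overlapped between the ages, at 6816 and 7967 against 5175 and 7692 TPM. Leaving out 1 library left 2 to 4 of the 8 calls: 3 without P1 Dctrl replicate 1, 2 without P1 Dctrl replicate 2, 2 without P5 Dctrl replicate 1 and 4 without P5 Dctrl replicate 2.

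In DcKO 4 genes fell from P1 to P5 and 0 rose (5.13% of all genes passed, 1.24% lower and 3.89% higher). They were mt-Nd1 (6600 and 7302 to 3666 and 4267 TPM, -0.81 ± 0.14, limma adjusted p = 0.0066), mt-Nd2 (-0.73 ± 0.16), mt-Nd5 (1452 and 1720 to 896 and 944, -0.78 ± 0.16, limma adjusted p = 0.0147) and the covered mt-Co2 (-1.67 ± 0.33). Of these mt-Co2 alone was called after median scaling, 0 were without P1 DcKO replicate 2 or P5 DcKO replicate 1, 1 was without P5 DcKO replicate 2, and 3 were without P1 DcKO replicate 1. Here mt-Cytb did not overlap, at 9991 and 10011 against 7471 and 7424 (-0.43 ± 0.16, limma adjusted p = 0.194).

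Between P5 and P10 control NGO the genotype and the mating line changed with age, from Chd4 f/+ with Ddx4-Cre to Chd4 f/f without Cre, and age and genotype cannot be told apart. Of the 32 genes 8 were higher and 1 lower at P10 (22.7% of all genes passed, 5.54% higher and 17.1% lower, with a median change of -0.47 over all genes). After median scaling 8 were higher and 0 lower. The highest gene mt-Cytb went from 5175 and 7692 TPM to 22970 and 20129 (1.77 ± 0.16, limma adjusted p = 2.3e-05). The complex IV gene mt-Co1 went from 1000 and 1488 to 4362 and 3670 (1.71 ± 0.20, limma adjusted p = 0.00014), and mt-Nd6 from 646 and 677 to 3025 and 1983 (1.89 ± 0.25, limma adjusted p = 0.00026). Smaller rises were those of mt-Nd5 (0.94 ± 0.16), mt-Nd4 (0.79 ± 0.24) and mt-Nd2 (0.59 ± 0.16). The tRNA gene mt-Te, which adjoins mt-Nd6 on the minus strand, went from 9.62 and 9.64 TPM to 92.0 and 53.9 (2.75 ± 0.51, limma adjusted p = 0.0025). The other tRNA gene called was mt-Tl2, whose call follows from the filter. The covered mt-Co3 was lower (-1.27 ± 0.42, limma adjusted p = 0.0495). It lost its call without any of the 4 libraries, and mt-Nd2 and mt-Nd4 lost theirs without either P5 library or without P10 Gctrl replicate 1. For mt-Nd1 the groups overlapped, with 2507 and 2304 against 2728 and 2088 TPM, a change of -0.01 ± 0.14 (limma adjusted p = 1). After median scaling its change was positive, as were those of both rRNA genes, which stood at -0.33 and -0.47 on the deposited scale.

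The makeup of the protein-gene pool differed between the P1, P5 and P10 libraries, the last step of which cannot be told apart from genotype. In P1 libraries mt-Cytb held 36.9% to 39.7% of the TPM of the 13 protein genes and mt-Nd1 held 25.7% to 27.2%. At P5 the ranges were 41.5% to 53.1% and 15.9% to 23.9%. In the 8 P10 libraries, NGO and GO alike, they were 57.5% to 65.2% and 6.72% to 8.78%, and in spermatogonia 59.7% to 67.6% and 9.99% to 13.4%. These shares lie within a library and do not depend on its scaling. Between control and knockout the mean mt-Cytb share differed by less than between P1 and P10 in each comparison. The group means were 37.8% and 38.4% at P1, 48.9% and 43.3% at P5, 63.1% and 59.4% in P10 NGO, 63.5% and 63.6% in P10 GO and 61.1% and 66.6% in spermatogonia, control first. Over the 16 oocyte libraries the log2 levels of mt-Cytb and mt-Co1 had a Pearson correlation of 0.949, those of mt-Rnr1 and mt-Rnr2 of 0.947 and those of mt-Nd1 and mt-Rnr2 of 0.904. That of mt-Cytb and mt-Nd1 was 0.03. These libraries share groups and a TPM total, so the correlations are a description.

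**Figure D4:**
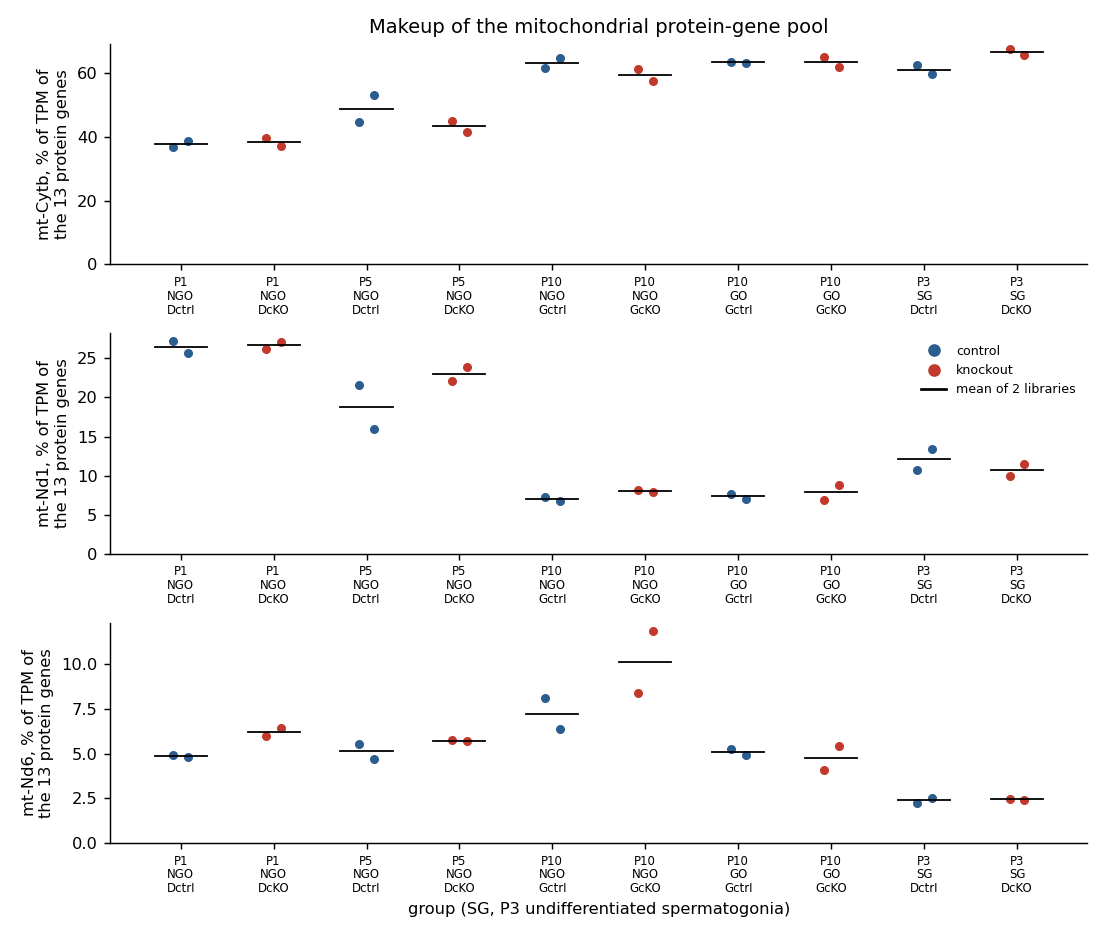
Percent of the TPM of the 13 protein genes held by mt-Cytb, mt-Nd1 and mt-Nd6 in each library (points) with the mean of each group (lines). The mt-Cytb share is 36.9% to 39.7% at P1 and 57.5% to 65.2% at P10, while that of mt-Nd1 is 25.7% to 27.2% and 6.72% to 8.78%.

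At P10 the growing oocytes had lower TPM of most mitochondrial messengers than the non-growing ones. In Gctrl 12 of 32 genes were lower and 1 higher in GO (24.3% of all genes passed, 13.2% lower and 11% higher), and in GcKO likewise 12 and 1 (20.4% of all genes, 8.92% lower and 11.5% higher). The 12 in Gctrl include mt-Tl2, whose call follows from the filter. The 2 comparisons use different libraries. Those of P10 NGO Gctrl also served the P10 against P5 and the P10 NGO knockout comparisons. A rise to P10 NGO and a fall from it to GO are therefore not independent results. In Gctrl mt-Cytb went from 22970 and 20129 TPM in NGO to 8462 and 8963 in GO (-1.30 ± 0.16, limma adjusted p = 0.00011), and in GcKO from 25797 and 32788 to 12170 and 10041 (-1.40 ± 0.16, limma adjusted p = 9.98e-05). For mt-Nd6 the Gctrl values were 3025 and 1983 against 703 and 696 (-1.81 ± 0.25, limma adjusted p = 0.00022). Its GcKO values were 3543 and 6761 against 763 and 881 (-2.58 ± 0.25, limma adjusted p = 2.8e-05). The complex I gene mt-Nd5 changed by -1.56 ± 0.16 in Gctrl and -1.84 ± 0.16 in GcKO, and mt-Nd1 by -1.25 ± 0.14 and -1.53 ± 0.14. Also lower in both genotypes were mt-Nd2, mt-Co1, mt-Nd4, mt-Atp6 and mt-Rnr2. The gene mt-Co2 was called in Gctrl alone and mt-Atp8 and mt-Rnr1 in GcKO alone, with no difference of effect past the test for any of them.

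The tRNA mt-Te had the largest of these changes, from 92.0 and 53.9 TPM to 1.91 and 7.76 in Gctrl (-3.82 ± 0.51, limma adjusted p = 0.00017) and from 209 and 415 to 9.65 and 13.4 in GcKO (-4.58 ± 0.51, limma adjusted p = 6.9e-05). GO libraries held 1 to 6 reads of it and NGO libraries 26 to 230. The other tRNA calls (mt-Tl2, mt-Tw and mt-Tg) rested on at most 4 reads. For mt-Tp no call was made, with 549 and 277 against 306 and 330 TPM in Gctrl. After median scaling 6 genes stayed lower and 1 higher in Gctrl. They were mt-Cytb, mt-Nd1, mt-Nd5, mt-Nd6, mt-Te, mt-Tl2 (whose call follows from the filter) and, higher, mt-Tw. With that scaling the changes of mt-Nd4l and mt-Rnr1 turned positive. In Gctrl mt-Rnr2 lost its call without GO replicate 1 (limma adjusted p = 0.0768), mt-Tw without GO replicate 2 (0.104) and mt-Co2 without any of the 4 libraries (0.0780 to 0.164). In GcKO mt-Rnr1 lost it without NGO replicate 2 or GO replicate 2, mt-Tg without GO replicate 1, and mt-Atp8 without NGO replicate 2 or either GO library (0.0709 to 0.175).

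**Figure D5:**
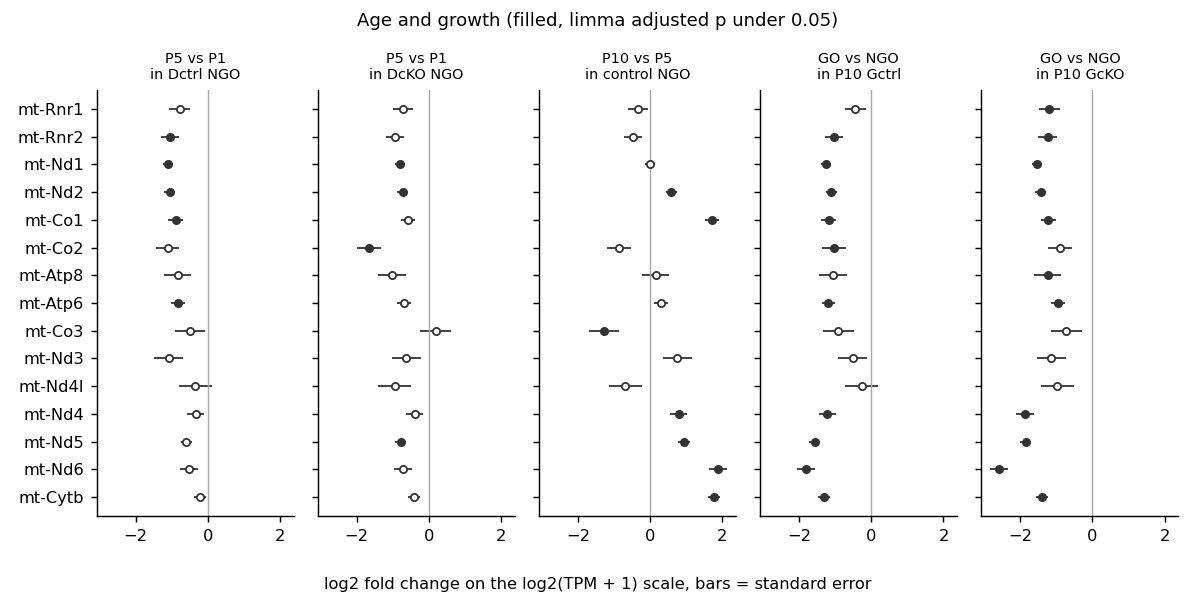
Log2 change (log2(TPM + 1) scale, standard errors) of the 2 rRNA and 13 protein genes with age and with growth; filled points passed limma's test. From P5 to P10 the genes part, with mt-Cytb at 1.77, mt-Nd1 at -0.01 and mt-Co3 at -1.27. In GO against NGO all 13 protein genes lie left of 0 in both genotypes.

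The nuclear genes that copy, transcribe and process mitochondrial DNA and RNA were followed as a list of 43. In the knockout comparisons 0 of 43 were called by limma in P1, P5 and P10 NGO and 0 of 42 in spermatogonia, with median changes of -0.15, -0.11, -0.20 and -0.05, and 5, 1, 6 and 3 had an unadjusted p under 0.05, where 10.2%, 11.8%, 15.6% and 16.1% of all genes tested did. After median scaling 1 was called lower in P10 NGO. The regulators Tfam and Polrmt were not among those called in any knockout comparison. In P10 GO 3 were higher and 1 lower, where 9.12% and 4.69% of all genes were, and 3 and 3 after median scaling. Hsd17b10, a subunit of the mitochondrial RNase P, had 173 and 250 TPM in Gctrl and 598 and 797 in GcKO (1.73 ± 0.22, limma adjusted p = 0.00027). Prorp, its catalytic subunit, had 46.4 and 32.2 against 7.72 and 11.3 (-1.94 ± 0.46, limma adjusted p = 0.0136). Gabpa, a transcription factor of genes for the respiratory chain, had 2.78 and 4.59 against 10.5 and 23.6 (1.87 ± 0.44, limma adjusted p = 0.014).

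In the age and growth comparisons the counts were read against the shares of all genes called, given above for each. From P1 to P5 in Dctrl Hsd17b10 rose (277 and 294 to 813 and 872 TPM, 1.56 ± 0.22, limma adjusted p = 0.0019) and Ssbp1, which coats single-stranded mitochondrial DNA, fell (226 and 205 to 101 and 90.1, -1.17 ± 0.21, limma adjusted p = 0.0085). These were 2 of 43, where 4.7% of all genes were called. In DcKO Hsd17b10 rose as the single call of the list. From P5 to P10 controls 4 were higher and 6 lower, where 5.54% and 17.1% of all genes were, among the latter Fastk, Gabpb1 and Polrmt, the mitochondrial RNA polymerase (7.36 and 6.08 to 0.387 and 0.244 TPM, -2.55 ± 0.56, limma adjusted p = 0.0065). The 4 higher were Lrpprc, Slirp, Polg2 and Tfam (50.2 and 52.7 to 103 and 103 TPM for Tfam, 0.99 ± 0.30, limma adjusted p = 0.0337). In GO against NGO 2 were higher and 11 lower in Gctrl, where 11% and 13.2% of all genes were, with Hsd17b10 (792 and 1064 to 173 and 250 TPM) and Ssbp1 (97.0 and 90.6 to 29.5 and 33.7) lower and Mterf1b, a transcription terminator, higher (1.33 and 0.627 to 41.6 and 43.3 TPM). Reads of Mterf1b may be shared with its close paralog Mterf1a. Of the genes named for P10 against P5, Lrpprc, Polg2 and Tfam were lower in GO and Polrmt was higher. Both comparisons use the same P10 NGO Gctrl libraries. In GcKO 5 were higher and 6 lower, where 11.5% and 8.92% of all genes were, among them Rexo2 and Pnpt1, which degrade mitochondrial RNA, lower and Tfb1m, which methylates the small rRNA, higher. After median scaling the counts were 9 higher and 5 lower for P10 against P5, 6 and 7 for Gctrl and 7 and 5 for GcKO. The list's medians turned from -0.31 to 0.08 for P10 against P5 and from -0.03 to 0.04 in GcKO.

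The nuclear genes for subunits of the same respiratory complexes, 89 in number, did not always follow the mitochondrial ones. At P1 and in P10 NGO 0 of 89 were called by limma between knockout and control, with median changes of 0.00 and 0.04, and in spermatogonia 0 of 88, with a median of -0.20 and 23 of 88 positive. In these 3 comparisons 7, 14 and 17 had an unadjusted p under 0.05, against 10.2%, 15.6% and 16.1% of all genes. At P5 8 were higher and 0 lower, where 1.36% of all genes passed in either direction, and 0 and 0 after median scaling. In P10 GO 46 were higher and 0 lower (20 and 0 after median scaling), where 9.12% of all genes were higher and 4.69% lower, with a median of 0.71 against 0.06 over all genes tested, and the mitochondrial protein genes had a median of 0.34. The ratio of TPM on the 13 mitochondrial protein genes to that on the nuclear subunit genes was 0.550 and 0.503 in P10 GO Gctrl and 0.465 and 0.412 in GcKO. In the other direction it was 0.197 and 0.246 in P1 Dctrl and 0.276 and 0.306 in DcKO, and 1.16 and 1.04 against 1.62 and 1.62 in spermatogonia. In P10 NGO it was 0.749 and 0.577 against 0.791 and 1.01, and at P5 the groups overlapped. In GO against NGO Gctrl 2 nuclear subunit genes were higher and 62 lower, where 11% and 13.2% of all genes were, with a median of -1.01 (5 and 33 with a median of -0.50 after median scaling), beside -1.17 for the mitochondrial protein genes. In GcKO 5 were higher and 32 lower, where 11.5% and 8.92% of all genes were. The median there was -0.47 (9 and 19 with -0.33 after median scaling), beside -1.23. The knockout change in GO minus that in NGO was higher for 26 and lower for 0 (8 and 1 after median scaling), where 7.46% of all genes passed. From P1 to P5 in Dctrl 3 nuclear subunit genes were higher and 16 lower (2 and 9 after median scaling), where 2.72% and 1.98% of all genes were. Their median was -0.26, beside -0.83 for the mitochondrial protein genes. In DcKO 5 were higher and 7 lower (2 and 0 after median scaling), where 3.89% and 1.24% of all genes were, with -0.17 beside -0.71. From P5 to P10 controls 8 were higher and 44 lower, where 5.54% and 17.1% of all genes were, with a median of -0.62 (15 and 24 with a median of -0.12 after median scaling), where the mitochondrial protein genes had 0.59.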

How the data were processed

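Per the submitters' processing notes, reads were handled with Trimmomatic 0.39, STAR 2.5.4b, SAMtools 1.9 and featureCounts 2.0.1 on GRCm38. The authors deposited TPM in a table of 16 oocyte libraries and a table of 4 spermatogonia libraries. The annotation, the strand setting, the treatment of reads with several matches and the making of TPM are not given in the sources used here. The mitochondrial genes, the lists and the tests were chosen with earlier results of these data known. Named are all protein and rRNA genes, tRNA genes that passed a test or were extreme in level, Chd4, nuclear copies, and up to 3 called genes of the machinery list per comparison. Tfam, Lrpprc, Slirp, Polg2 and Dmrt1 were named after their values were seen.

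Values were analysed as log2(TPM + 1) with limma 3.58.1 in R 4.3.3 (eBayes with trend, two-sided, Benjamini-Hochberg over all genes tested, threshold 0.05). A gene entered the test when 2 or more libraries of its table reached TPM 1, which left 20470 and 18671 genes. The oocyte libraries were fitted together, the spermatogonia alone. Fold changes are on this scale and understate those of low genes. Depth was 15.4 to 30.2 M reads, recovered from TPM times GENCODE M21 gene length, at which 98.7% to 99.2% of values under 20 reads were whole within 0.05. Copies were sought with blastn 2.17.0 among M21 transcripts, with alignments of at least 40 bases and 99% identity. Alternatives were a pseudocount of 0.1, no filter or a filter at TPM 5, median-of-ratios scaling, scaling to genes outside the mitochondrial genome, a replicate block, a fit of only the groups compared, and leaving out each library.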

Additional observations from a re-analysis of the deposited data

Results flagged for a closer look

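For the leucine tRNA gene mt-Tl2 the knockout change in growing minus that in non-growing oocytes at P10 was 2.16 on the log2 scale (limma adjusted p = 0.0237). The gene had 1.83 and 6.04 TPM in P10 NGO Gctrl and was at 0 in every other oocyte library, so it entered the test only through the group where it was high, and the value rests on 1 and 3 reads. The filter decided this call, which is no evidence of a difference. The call was lost without NGO GcKO replicate 2, without either GO Gctrl library or without GO GcKO replicate 1, with adjusted p of 0.0505 to 0.0695.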

How the results depend on the processing

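No mitochondrial gene that passed a test changed sign under any alternative run. Some genes that had not passed did so with median scaling. Of 139 counts of mitochondrial genes called under an alternative, 100 were within 1.5 times the main count. The exceptions were as follows. In P1 knockouts the fit of only the groups compared gave 1. In P5 knockouts 0 were called with no filter, with a filter at TPM 5, with median scaling and with only the groups compared. In P10 NGO knockouts 1 was called with no filter, 1 with median scaling and 0 with only the groups compared. P5 against P1 gave 5 with no filter, 4 with median scaling and 16 with only the groups compared in Dctrl, and 1 with median scaling and 9 with only the groups compared in DcKO. GO against NGO in Gctrl gave 7 with median scaling. The difference between GO and NGO effects gave 0 with the filter at TPM 5, 3 with median scaling and 0 with only the groups compared. Why was not tested. Leaving out 1 library gave 0 to 0 calls at P5, 0 to 8 in P10 NGO, 0 to 3 in P10 GO, 2 to 4 and 0 to 3 for P5 against P1 in Dctrl and DcKO, 6 to 10 for P10 against P5, 11 to 15 and 11 to 16 for GO against NGO in Gctrl and GcKO, and 0 to 4 for the difference between GO and NGO effects. For P1 and spermatogonia knockouts and the P5 minus P1 difference it gave 0 throughout. A group left with 1 library was assumed to vary like the others. Apart from mt-Tl2, which could not be tested without either P10 NGO Gctrl library or with the filter at TPM 5, the genes that kept their call under all alternatives were 5 of 8 for P10 against P5, 5 of 12 and 9 of 13 for GO against NGO in Gctrl and GcKO, and 2 of 8 for P5 against P1 in Dctrl. None of the calls in the knockout comparisons or for P5 against P1 in DcKO did.

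Replicate numbers are shared by the groups, but nothing in the labels pairs them. Deviations of same-numbered libraries had correlations of -0.0492 to 0.0466 over 28 pairs of oocyte groups, 0 of them over 0.1, and of 0.00809 in spermatogonia. With a replicate block the calls were 0 at P1, 1 at P5, 2 in P10 NGO, 3 in P10 GO, 7 and 5 for P5 against P1, 10 for P10 against P5, 13 and 12 for GO against NGO, 0 and 1 for the differences of effect and 0 in spermatogonia.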
